A study of Mus musculus with 19 samples.

Results

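Expression of 10 immediate early transcription factor genes (Fos, Fosb, Junb, Egr1, Egr2, Egr3, Egr4, Npas4, Nr4a1 and Nr4a3) was examined in the CA1 region of the mouse hippocampus. The genes were chosen by name as activity-induced transcription factors, and their Ensembl identifiers were found through GENCODE M21 among the 48709 genes of the raw count files. Positions are those of GENCODE M21 on GRCm38 (mm10), and all 10 genes are protein-coding. All 10 were present, and all 10 passed the filter on low counts, which kept 19297 genes. RNA-seq had been done on 19 libraries from mice of 7 months. The WT control group (n = 6) held littermates without the transgenes, and the APP control group (n = 6) held APPPS1-21 mice. The APP anti-miR-mix group (n = 7) held APPPS1-21 mice given inhibitors of 3 miRNAs, whose sequences are printed further on. All animals received lipid nanoparticles in the dorsal hippocampus, loaded with a control oligonucleotide in both control groups. Titles of wild-type samples also mention the mixture, and the study's account, in which these animals got control oligonucleotide, was followed. APPPS1-21 mice carry transgenes, among them mutant human APP, that the Thy1 promoter drives in neurons. The interval between the last handling of an animal and its killing is not given in the sources used here. The labels describe microdissected CA1 and give hippocampus as the source. Of the CA1 marker list 9 genes were matched, and all were tested, but the dentate gyrus list was detected too, at summed levels of 6468 to 10820 normalised counts per library against 35980 to 55900 for the CA1 list. The lists for CA3 and cortex summed to 13870 to 20260 and 6136 to 9621.

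Immediate early genes are transcribed within minutes of a stimulus, from factors such as CREB and SRF that are already present in the cell and need no new protein synthesis. In hippocampal neurons the stimulus is calcium entry through synaptic receptors and voltage-gated channels, and the transcripts are short-lived, so that their level in a tissue sample follows recent activity and the handling of the animal. The products in turn bind the regulatory DNA of effector genes. Fos, FosB and JunB are subunits of the AP-1 dimer, the Egr proteins are zinc finger factors, Npas4 is a neuronal bHLH-PAS factor that responds selectively to calcium influx, and Nr4a1 and Nr4a3 are orphan nuclear receptors.

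Per length of exon, the members differed widely in level. The length-scaled level, in normalised counts per kilobase of exon per 1000000 of the mean library total, was 36.0 ± 5.64 for Nr4a1 and 35.9 ± 4.58 for Egr1 in WT control (mean ± SD, n = 6). These highest members overlapped each other. Junb followed at 24.2 ± 2.65, below every library of Egr1. Nr4a3 (10.9 ± 1.13), Egr4 (10.5 ± 1.196), Fos (8.68 ± 2.08) and Egr3 (6.58 ± 0.54) came next, and each overlapped its neighbour in this order. Npas4 stood apart at 3.28 ± 0.19. Fosb (1.55 ± 0.13) and Egr2 (0.85 ± 0.31) were the lowest and overlapped. The order was the same in APP control except that Egr1 (25.3 ± 1.12) stood above Nr4a1 (21.2 ± 2.91), and there Junb (18.3 ± 3.17) overlapped Nr4a1. In APP anti-miR-mix Egr1 (26.1 ± 6.60) again came before Nr4a1 (17.3 ± 2.58), and Egr3 (5.54 ± 0.97) before Fos (4.55 ± 1.11), in both cases with overlap. Raw counts of a member ranged from 31 in a library for Egr2 to 5959 for Egr1.

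The first comparison asked how the transgenes changed the members. Of the 10 members, 7 were called lower in the APP control group relative to WT control by DESeq2 at an adjusted p under 0.05 (Fos, Fosb, Junb, Egr1, Egr4, Nr4a1 and Nr4a3) and none was called higher. Over all genes tested, 1.05% were called lower and 3.66% higher. The median log2 fold change of the members was -0.46, beside -0.01 over all 19297 genes. For 6 members (Fosb, Junb, Egr1, Egr4, Nr4a1 and Nr4a3) every APP control library lay below every WT control library, which was so for 0.368% of all genes tested. The members and the lists below were chosen with results of these data known, so the counts describe them and are no test of the group.

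**Figure D1:**
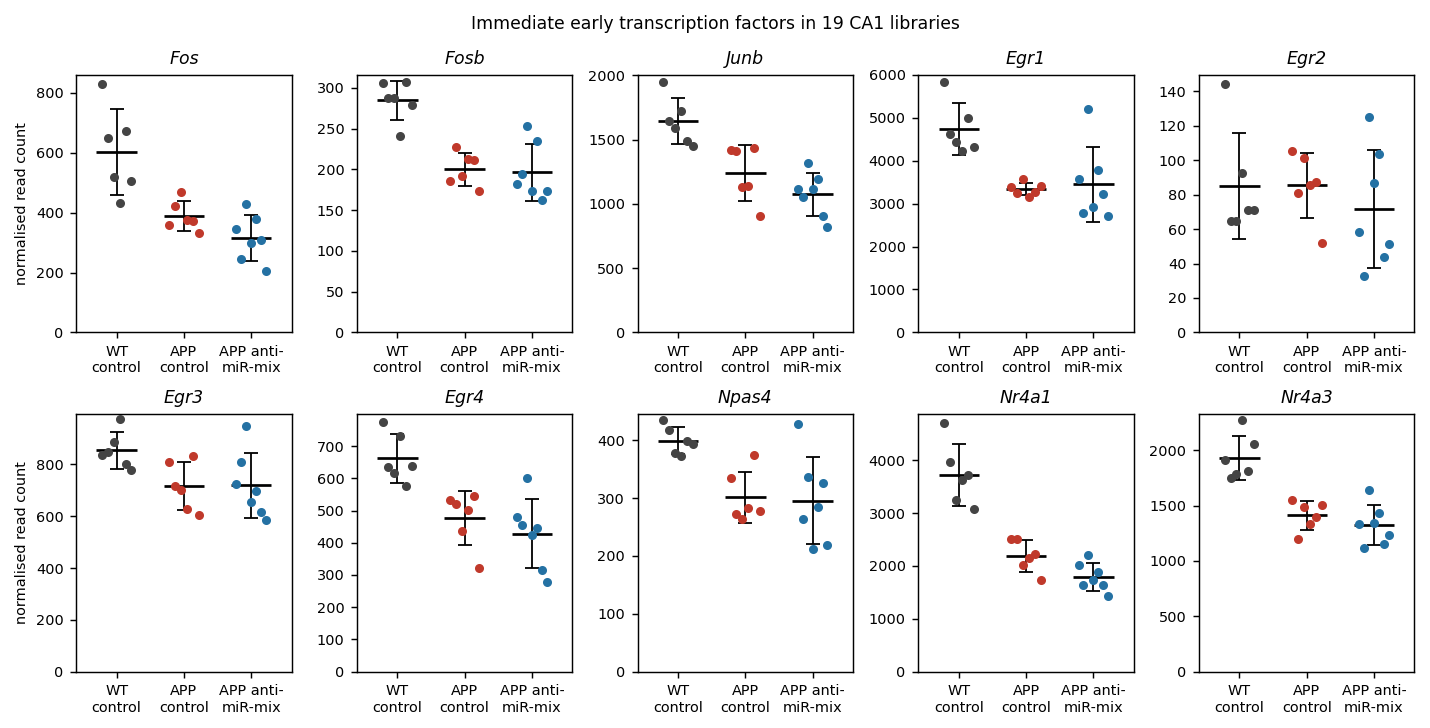
Normalised read counts (vertical axes, linear, from 0) of the 10 members in the 3 groups, with 6 libraries of WT control, 6 of APP control and 7 of APP anti-miR-mix; each point is a library, in replicate order from left to right, horizontal lines are means and bars are SD. For Nr4a1 the lowest WT control library (3070) lies above the highest APP control library (2510), and for Egr2 the groups overlap.

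Nr4a1 (ENSMUSG00000023034, chromosome 15, 101254269 to 101274795) had the largest change among the members. This orphan nuclear receptor is induced rapidly in neurons and other cells. Its normalised count was 3070 at the lowest, 3672 at the median and 4711 at the highest in WT control, and 1728, 2189 and 2510 in APP control. The groups did not overlap, and the mean fell from 3721 ± 583 to 2189 ± 301 (mean ± SD). The log2 fold change was -0.77 (SE 0.12), or 41.2% lower (DESeq2 adjusted p = 3.46e-08).

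Nr4a3 (ENSMUSG00000028341, chromosome 4, 48045153 to 48086447), a close relative of Nr4a1, has the larger gene and the lower count. It had 1751, 1862 and 2271 normalised counts in WT control (lowest, median and highest) and 1196, 1442 and 1553 in APP control, with no overlap. Nr4a3 had a log2 fold change of -0.45 (SE 0.09), or 26.9% lower (adjusted p = 1.02e-04).

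Fos (ENSMUSG00000021250, chromosome 12, 85473890 to 85477273) encodes the AP-1 subunit most often used to mark active neurons. It varied more between WT control libraries than the other called members, with 434, 584 and 830 normalised counts. In APP control it had 332, 374 and 470. The groups overlapped through WT control 4 (434) and APP control 3 (470), and the other 5 libraries of APP control lay below the whole of WT control. The log2 fold change was -0.63 (SE 0.17), or 35.5% lower (adjusted p = 0.00579).

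Fosb (ENSMUSG00000003545, chromosome 7, 19302696 to 19310051) makes a full-length protein and, by splicing, the stable truncated form that accumulates with repeated activity. The counts used here are per gene and cannot separate these forms. It had 241, 288 and 307 normalised counts in WT control and 173, 201 and 227 in APP control, with no overlap. This was a log2 fold change of -0.51 (SE 0.11), or 29.7% lower (adjusted p = 2.58e-04).

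Junb (ENSMUSG00000052837, chromosome 8, 84974484 to 84978718), a Jun family partner of Fos proteins, had 1453, 1616 and 1949 normalised counts in WT control and 909, 1271 and 1435 in APP control. The gap between the groups was narrow, from 1435 to 1453. The log2 fold change was -0.40 (SE 0.12, adjusted p = 0.0247). The call was lost in the edgeR quasi-likelihood test (adjusted p = 0.0774) and when WT control 1, 2 or 4 or APP control 3, 4 or 6 was left out, with adjusted p of 0.0692, 0.0533, 0.0623, 0.0802, 0.0783 and 0.0588. Junb shares 173 exonic bases with Prdx2 on the opposite strand, and the library kit does not mark strand, so reads from those bases cannot be assigned to either gene.

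Egr1 (ENSMUSG00000038418, chromosome 18, 34859823 to 34864984), also known as Zif268, is the Egr factor with the highest level in CA1. It had 4217, 4536 and 5846 normalised counts in WT control and 3162, 3332 and 3572 in APP control. The APP control libraries were tightly grouped, with a CV of 4.43% against 12.8% in WT control, and the groups did not overlap. Egr1 had a log2 fold change of -0.50 (SE 0.13), or 29.5% lower (adjusted p = 0.00371).

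Egr4 (ENSMUSG00000071341, chromosome 6, 85511121 to 85513589) had 576, 637 and 775 normalised counts in WT control and 322, 511 and 546 in APP control. APP control 6 (322) lay well below the other 5 libraries of its group, and the groups did not overlap. The log2 fold change was -0.47 (SE 0.16), and the adjusted p of 0.04996 was at the threshold. The call was lost with edgeR (adjusted p = 0.123), with TMM size factors (0.0631), without the filter on low counts (0.0504) and with the adjustment number described below as a factor (0.0605). It was also lost when any of 13 libraries was left out, namely WT control 1, 2, 3, 4 or 6, APP control 2, 3, 4 or 6 or APP anti-miR-mix 1, 2, 4 or 5, with adjusted p up to 0.128.

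The remaining members were not called. Npas4 (ENSMUSG00000045903, chromosome 19, 4984355 to 4990316) had 373, 396 and 435 normalised counts in WT control and 264, 281 and 375 in APP control, so that 5 of 6 APP control libraries lay below the whole of WT control. Its log2 fold change was -0.40 (SE 0.14, 95% CI -0.68 to -0.13, adjusted p = 0.0689). It was called when APP control 5 or APP anti-miR-mix 1, 4 or 7 was left out (adjusted p = 0.0202, 0.0157, 0.0417 and 0.0432) and when APP anti-miR-mix was kept out of the fit (0.00147).

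Egr3 (ENSMUSG00000033730, chromosome 14, 70077203 to 70082614) had 780, 841 and 976 normalised counts in WT control and 605, 710 and 834 in APP control. APP control 1 and 5 lay within the WT control range. Its log2 fold change was -0.26 (SE 0.11, 95% CI -0.47 to -0.04, adjusted p = 0.205).

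Egr2 (ENSMUSG00000037868, chromosome 10, 67535475 to 67542188), also known as Krox20, is a factor of the Egr family that is also used by myelinating glia of peripheral nerves. It had 65.0, 71.0 and 144 normalised counts in WT control and 52.2, 86.5 and 106 in APP control. WT control 1 (144) was far above the rest of its group, whose next value was 92.7. Its log2 fold change was 0.00 (SE 0.28), and without WT control 1 it was 0.22, so the direction was not determined. The 95% CI of -0.55 to 0.56 reaches past the estimates of Fosb, Junb, Egr1, Egr4 and Nr4a3 but not those of Fos and Nr4a1, and Egr2 had the lowest counts of the 10 genes.

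**Figure D2:**
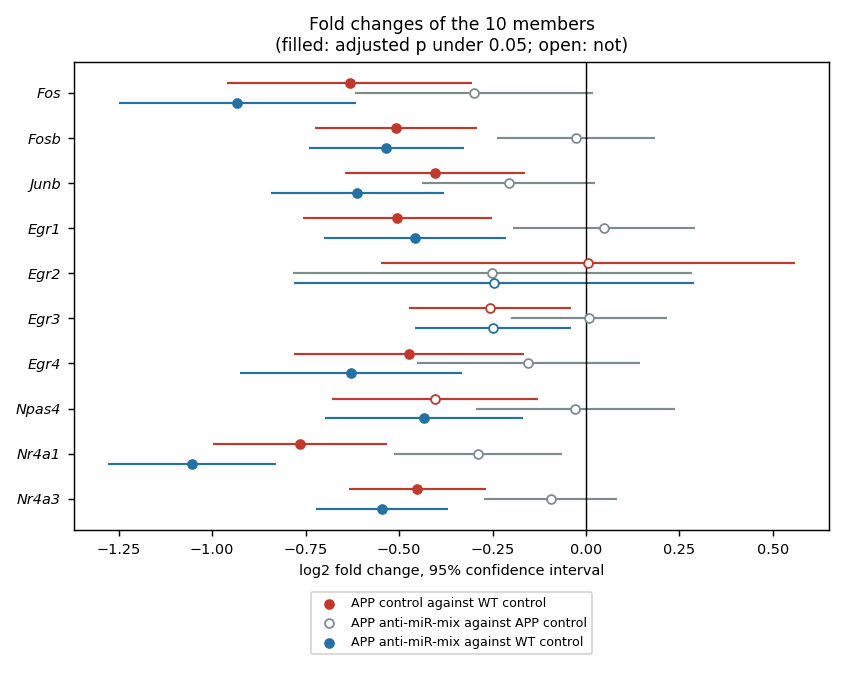
Log2 fold changes (horizontal axis) of the members in the 3 comparisons, with points at the estimate and lines for the 95% CI; filled points passed an adjusted p of 0.05. APP control and APP anti-miR-mix both lie left of 0 against WT control for most members, while every estimate of APP anti-miR-mix against APP control lies between -0.30 and 0.05.

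Promoter sequences of members are shown because the 10 genes are defined by their response to common signalling. They came from RefSeq on GRCm38.p6 as windows from 250 bases before to 50 after a start site, in which 8 of the 10 members had an entry (Egr1 and Egr3 had none). The letters TGACG, the core of the cAMP response element bound by CREB, were searched on both strands. They occurred in a window of all 8 members, and in 23.0% of the 27025 genes with a window. The full palindrome TGACGTCA, which contains TGACG, was in a window of 0 of the 8 members and of 2.03% of genes. The AP-1 site TGANTCA was in 0 of the 8 and in 8.97% of genes, and the CArG box bound by SRF was in Egr2 and in 1.81% of genes. The stretch from -150 to -1 is printed for the 4 called members with the smallest adjusted p that have a window and for Egr2, which was not called, with TGACG or its complement CGTCA in capitals. Egr2 has 5 start sites in the table, of which 3 hold the letters, and the window shown is one of these.
Nr4a1, chr15:101266696-101266845, plus strand: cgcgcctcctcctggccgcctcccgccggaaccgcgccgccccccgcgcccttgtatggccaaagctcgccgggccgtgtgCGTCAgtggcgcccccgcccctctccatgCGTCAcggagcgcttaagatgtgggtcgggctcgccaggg
Nr4a3, chr4:48045155-48045304, plus strand: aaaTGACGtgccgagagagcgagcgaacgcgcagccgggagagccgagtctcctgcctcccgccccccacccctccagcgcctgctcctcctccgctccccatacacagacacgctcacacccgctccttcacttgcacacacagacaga
Fos, chr12:85473740-85473889, plus strand: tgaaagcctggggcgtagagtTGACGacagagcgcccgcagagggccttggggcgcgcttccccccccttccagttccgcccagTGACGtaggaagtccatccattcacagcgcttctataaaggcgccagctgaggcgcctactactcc
Fosb, chr7:19310046-19310195, minus strand: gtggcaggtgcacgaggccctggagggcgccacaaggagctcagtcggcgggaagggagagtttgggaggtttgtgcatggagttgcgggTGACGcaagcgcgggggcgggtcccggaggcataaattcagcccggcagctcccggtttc
Egr2, chr10:67537719-67537868, plus strand: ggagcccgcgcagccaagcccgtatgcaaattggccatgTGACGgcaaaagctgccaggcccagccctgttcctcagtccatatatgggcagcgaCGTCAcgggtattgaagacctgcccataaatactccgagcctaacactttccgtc
Nr4a1 and Nr4a3 had 4 matches each in the whole window, of which Nr4a1 had 2 and Nr4a3 had 1 in the stretch shown. Fos had 2 and Fosb 1. The stretch for Egr2 held 2 matches, in a window taken from those that hold the letters. Of the members not shown, the uncalled Npas4 had 0 in this stretch and 2 in the whole window. The called Junb and Egr4 had 1 each in the stretch. Whether called and uncalled members differ in these letters was not tested. A match is a description of the sequence and was not tested as a binding site.

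The libraries carry a whole number from 1 to 5, recovered from how the authors' normalized table departs from the counts, whose meaning is not stated (the adjustment number). Numbers 1 to 4 hold libraries of all 3 groups, and number 5 holds WT control 6 alone. Within these 4 numbers the mean of APP control was below that of WT control in 4 of 4 for every member but Egr2, which was lower in 2 of 4. For Nr4a1 the log2 ratio of the means ranged from -0.91 to -0.52, for Fosb from -0.72 to -0.26 and for Egr1 from -0.78 to -0.32. For Fos it ranged more widely, from -1.21 in number 1 to -0.04 in number 3. Each number holds 1 or 2 libraries of a group, too few for a test. With the number as a factor in DESeq2, 6 members were called, the 7 above without Egr4.

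**Figure D3:**
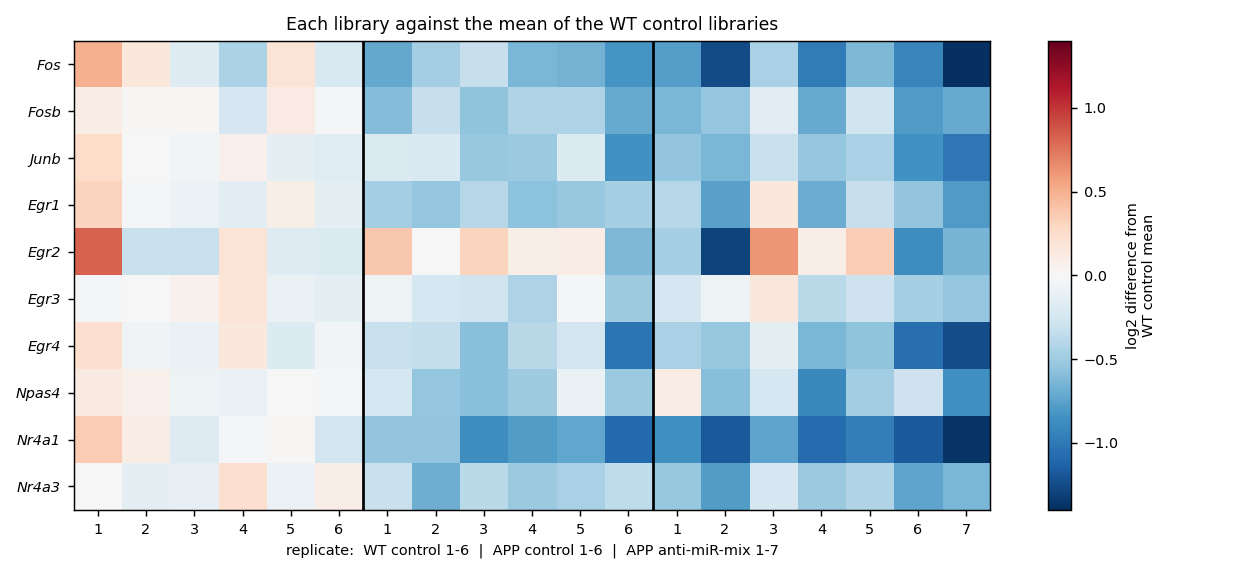
Log2 difference of each library (columns, by group and replicate) from the WT control mean for each member (rows); red is higher, blue lower, and white no difference. WT control 1 is the reddest column and APP anti-miR-mix 7 the bluest, and APP anti-miR-mix 3 is paler than the rest of its group.

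Other genes of the response were read from fixed lists. Of 32 other immediate early regulators tested, 6 were called lower and 3 higher in APP control against WT control, with a median log2 fold change of -0.10. Counts called in these lists stand beside the 1.05% lower and 3.66% higher of all genes, and a single gene called higher in a list of 22 or 29 is near that share. Lower were Nr4a2, the remaining Nr4a gene (-0.38, adjusted p = 8.91e-04), and Klf10 (-0.39, adjusted p = 4.73e-04), with Fosl2, Ier2, Crem and Sik1. Higher were Atf3, a stress-responsive factor that rose from 44.0 ± 18.6 to 109 ± 37.4 normalised counts (1.30, adjusted p = 2.10e-04), Zfp36, which encodes the mRNA-destabilizing protein tristetraprolin (0.77, adjusted p = 5.73e-04), and Maff. Fosl2, Ier2, Crem, Sik1 and Maff were named after their values were seen, as was Jun, the partner of Fos in the classical AP-1 dimer, which had a log2 fold change of 0.03 (adjusted p = 0.959).

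Of 27 upstream genes, among them the NMDA receptor subunits, calcium channels, kinases and the constitutive factors CREB and SRF, none was called in either direction in DESeq2, with log2 fold changes of -0.24 to 0.19. Of 22 feedback inhibitors, which end the signal or the mRNA, 5 were called lower and 1 higher. Rgs4, an inhibitor of G protein signalling, fell from 6483 ± 589 to 4698 ± 505 normalised counts (-0.46, adjusted p = 4.33e-08). Dusp1, a phosphatase that inactivates MAP kinases, fell from 680 ± 62.5 to 454 ± 98.5 (-0.58, adjusted p = 1.23e-05). Zfp36 and Sik1 stand in this list too, and Zfp36 was the gene that rose. Of 29 activity-induced effectors other than Egr1, 5 were called lower and 1 higher. Arc, which removes AMPA receptors from synapses, had 3873 to 8335 normalised counts in WT control and 2280 to 4191 in APP control (-0.75, adjusted p = 0.00532). Scg2, Vgf and Bdnf, which encode secreted peptides and a neurotrophin, were lower by -0.38, -0.43 and -0.40 on the log2 scale (adjusted p = 1.40e-04, 0.00277 and 0.0223). The fifth, Tac1, and Gadd45g, which was higher (0.31, adjusted p = 0.0397), were named after their values were seen.

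Cell type markers moved between the same groups. In APP control 10 of 12 microglia markers were called higher, with a median log2 fold change of 1.01, and their summed level was 16330 to 25830 normalised counts in WT control and 25650 to 56130 in APP control; no marker was at 0 in all libraries. Gfap of the 10 astrocyte markers was called higher. Of 30 neuron and synapse genes 0 were called in DESeq2, with a median log2 fold change of -0.11 and a range from -0.28 to 0.02. The estimates of Egr2 (0.00) and Egr3 (-0.26) lay within this range and those of the other members below it. Of 10 interneuron markers 3 were called lower (Gad1, Gad2 and Npy, by -0.30, -0.26 and -0.37). No dentate gyrus, CA1, oligodendrocyte or choroid plexus marker was called, and of 13 glucocorticoid-induced genes 0 were called, of which 2 had no p in DESeq2. The median log2 fold change of this list was 0.23, and APP control 5 had a summed level of 26530 normalised counts against 15700 to 19100 in the other 18 libraries. Of the lists for neighbouring regions and vessels, Prkcd (CA3 list), Flt1 and Cdh5 (endothelial) and Mgp (meninges) were called higher and Tac1 (striatum list, also an effector) lower. Of 10 heat shock genes 2 were called lower, Hspa8 (-0.18) and Hsp90aa1 (-0.18). In tissue RNA, fewer cells of a type and less RNA per cell cannot be told apart, and the part of these shifts in the lower counts of the members was not tested. Without WT control 5 and APP anti-miR-mix 6, whose choroid plexus markers summed to 2629 and 1857 normalised counts against at most 992 in other libraries, 7 members were called.

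The second comparison asked what the inhibitors changed within the transgenic animals. With DESeq2 and with edgeR 0 members were called when the treated and control transgenic groups were compared, in a comparison in which 0% of all genes were called lower and 0% higher. At an unadjusted p under 0.05 there was 1 member, Nr4a1, and 552 genes in all. The median log2 fold change of the members was -0.12, and 8 estimates were below 0. Both comparisons use the APP control libraries, so their values are not independent.

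The sequences that define this comparison are the 3 miRNAs and the oligonucleotides directed at them. In the mature miRNAs, from RefSeq on GRCm38.p6, capitals mark the seed at bases 2 to 8, and no seed is shared. In the inhibitors, from the study's list of oligonucleotides, capitals mark the bases that pair with the seed.
miR-181a-5p: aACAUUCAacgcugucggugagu
miR-146a-5p: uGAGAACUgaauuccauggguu
miR-148a-3p: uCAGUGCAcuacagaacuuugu
inhibitor of miR-181a-5p: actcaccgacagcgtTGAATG
inhibitor of miR-146a-5p: acccatggaattcAGTTCTC
inhibitor of miR-148a-3p: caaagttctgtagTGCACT
negative control for inhibitor: taacacgtctatacgccca
The inhibitor of miR-146a-5p covers bases 2 to 21 of its target and 7 bases of the seed, while the other inhibitors begin at base 3 and cover 6. The control oligonucleotide holds none of the stretches in capitals of the 3 inhibitors, and so the whole complement of none of the 3 seeds. Chemical modifications are not shown.

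Matches to bases 2 to 8 of the miRNAs were looked for in the longest annotated 3′ UTR of each gene. For miR-181a-5p 3 of the 10 members had a match (Fos, Egr3 and Nr4a3), beside 18.1% of 15385 tested genes with a 3′ UTR. For miR-146a-5p there were 2 (Npas4 and Nr4a3) beside 12.4%, and for miR-148a-3p 3 (Fosb, Egr2 and Egr3) beside 14.9%. The matches in Fos, the member with the lowest estimate in this comparison, and in Nr4a3, which has matches to both miR-181a-5p and miR-146a-5p, are printed 5′ to 3′ with the paired bases in capitals.
Fos, miR-181a-5p match, chr12:85477044-85477065, plus strand: ttgtcgaggtggtcTGAATGTt
Nr4a3, miR-181a-5p match, chr4:48085128-48085149, plus strand: agactcaaaaacttTGAATGTc
Nr4a3, miR-146a-5p match, chr4:48084272-48084293, plus strand: gtcaacctggacagAGTTCTCt
The 6 members with a match had log2 fold changes of -0.30 to 0.01 after treatment, and the 4 without (Junb, Egr1, Egr4 and Nr4a1) had -0.29 to 0.05. The ranges overlapped.

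Nr4a1 had 1424, 1742 and 2211 normalised counts in APP anti-miR-mix (lowest, median and highest) against 1728, 2189 and 2510 in APP control. APP anti-miR-mix 2, 6 and 7 lay below the whole of APP control, and the other 4 within its range. The log2 fold change was -0.29 (95% CI -0.51 to -0.06, unadjusted p = 0.0120, adjusted p = 1.00). Within adjustment numbers it was lower in 4 of 4, by -0.39 to -0.20. The difference did not pass the test over all genes.

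Fos had 203, 310 and 427 normalised counts in APP anti-miR-mix against 332, 374 and 470 in APP control, and 4 of 7 treated libraries lay below the whole of APP control. Its log2 fold change was -0.30 (95% CI -0.62 to 0.02). Junb had 818, 1117 and 1315 normalised counts against 909, 1271 and 1435, a log2 fold change of -0.21 (95% CI -0.44 to 0.03). For both genes the groups overlapped and the intervals include no change. Within adjustment numbers Fos was lower in 4 of 4, by -0.45 to -0.06, and Junb in 3 of 4, from -0.44 to 0.03.

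The estimates of 4 members were near 0. Fosb (-0.03, 95% CI -0.24 to 0.19), Egr3 (0.01, -0.20 to 0.22), Npas4 (-0.03, -0.29 to 0.24) and Egr1 (0.05, -0.20 to 0.29) changed sign when single libraries were left out. Nr4a3 was at -0.09 (-0.27 to 0.08), Egr4 at -0.15 (-0.45 to 0.14) and Egr2, with the widest interval, at -0.25 (-0.78 to 0.28). For the 9 members other than Egr2, the upper bound of the interval was smaller than the estimate by which WT control exceeded APP control. That estimate has an interval of its own, for Egr3 from -0.47 to -0.04 as APP control against WT control. Both values use the APP control libraries, so this is no test of a return to wild-type levels. The CV was higher in APP anti-miR-mix for every member but Junb (15.7% against 17.3% in APP control), among them Nr4a1 (14.9% against 13.7%), Egr1 (25.2% against 4.43%) and Egr2 (47.5% against 22.1%), and this difference in spread was not tested. Egr1 in APP anti-miR-mix 3 (5211) lay within the WT control range, far from the next treated library at 3779, and without it the log2 fold change was -0.08.

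In the lists of other immediate early regulators, upstream genes, feedback inhibitors and effectors 0 genes were called in DESeq2. Their median log2 fold changes were -0.01, -0.04, -0.01 and -0.05. None of the cell type marker lists held a called gene in this comparison either, and the microglia list had a median log2 fold change of 0.05.

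The third comparison set the treated transgenic animals against the wild type. Of the 10 members 8 were called lower in the treated group, while 3.36% of all genes tested were called lower and 5.59% higher. The median log2 fold change was -0.54 for the members and -0.02 for all genes. The groups did not overlap for 4 members (Fos, Junb, Nr4a1 and Nr4a3), which was so for 0.897% of all genes. This comparison shares its WT control libraries with the first.

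Nr4a1 was lower by 51.8% (log2 fold change -1.05, SE 0.11, adjusted p = 7.24e-17) and Fos by 47.6% (-0.93, SE 0.16, adjusted p = 7.48e-07). The highest treated library of Nr4a1 had 2211 normalised counts and the lowest WT control library 3070. Junb (-0.61, adjusted p = 1.46e-05), Nr4a3 (-0.55, adjusted p = 1.52e-07) and Egr4 (-0.63, adjusted p = 0.00104) were lower as well, Egr4 with APP anti-miR-mix 3 (600) inside the WT control range. Fosb (-0.53, adjusted p = 2.58e-05) and Egr1 (-0.46, adjusted p = 0.00535) also overlapped WT control through APP anti-miR-mix 3 alone, at 254 and 5211 normalised counts.

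Npas4 passed the threshold here (-0.43, adjusted p = 0.0201), with APP anti-miR-mix 1 (427) within the WT control range and 6 of 7 libraries below it. The call was lost with edgeR (adjusted p = 0.0663) and without APP anti-miR-mix 4 or 7 (0.0528 and 0.0527). Egr3 (-0.25, 95% CI -0.46 to -0.04, adjusted p = 0.131) was not called, but was called without APP anti-miR-mix 3 (-0.33, adjusted p = 0.00973). Egr2 (-0.25, 95% CI -0.78 to 0.29) was not called, with 32.5 to 125 normalised counts over the treated libraries.

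Among the other regulators 8 were called lower and 3 higher against WT control, and Atf3 was higher by 1.68 on the log2 scale (adjusted p = 4.61e-08) at 142 ± 40.8 normalised counts. Sik1 (-0.46, adjusted p = 3.30e-04), a kinase that restrains CREB coactivators, and Csrnp1 (-0.33, adjusted p = 7.99e-04) were lower. Nr4a2 was not called (-0.15, adjusted p = 0.344), and was named here after its values were seen. Of the feedback inhibitors 7 were lower and 1 higher, with Dusp1 at -0.64 (adjusted p = 2.00e-07) and Dusp5, a nuclear phosphatase of ERK, at -0.60 (adjusted p = 9.73e-05). Of the effectors 7 were lower and 2 higher. Arc was at 2652 ± 639 normalised counts (-1.04, adjusted p = 4.37e-06), and Nptx2, a secreted pentraxin that gathers AMPA receptors, at 377 ± 67.4 (-0.93, adjusted p = 3.27e-06). Of the upstream list Arnt2, the dimer partner of Npas4 (-0.25, adjusted p = 0.00231), and Grin2b (-0.39, adjusted p = 0.00526) were lower and Mapk3 (0.28, adjusted p = 0.0240) was higher. The microglia list, with 11 of 12 genes called higher and summed levels of 34850 to 55880 normalised counts, moved with this comparison too, as did Gfap (1.399 on the log2 scale), 3 endothelial markers and 5 meninges and fibroblast markers, all higher. Lower were 2 of 30 neuron and synapse genes, the AMPA receptor subunit Gria1 (-0.40, adjusted p = 0.00977) and Gabbr1 (-0.16, adjusted p = 0.00600), 3 of 10 interneuron markers (Sst, Npy and Gad1, by -0.44, -0.42 and -0.23), 4 heat shock genes, Fezf2 of the cortex list and Per1 of the glucocorticoid list. Prkcd (CA3 list) and Pcp4 (CA2 list) were higher and Amigo2 (CA2 list) lower. Their part in the result was not tested.

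The members also varied together between libraries of the same group. After group means were subtracted, Pearson's r between log2(normalised count + 1) of the members was above 0 for 45 of 45 pairs over the 19 libraries, with a median of 0.52 and a range from 0.10 to 0.92. By a two-sided permutation test within groups (100000 permutations, adjusted over 45 pairs) 22 pairs passed an adjusted p of 0.05 with r and 14 with Spearman's rho. Over all pairs of the 14091 genes with a mean of at least 50 normalised counts the median r was -0.001, and 49.9% of pairs were above 0. The points share library and size factor, and the permutations did not hold the adjustment number fixed. With group and adjustment number subtracted together, a choice made after seeing the data, the median r of the members was 0.584 (0.08 to 0.89), again with 45 of 45 pairs above 0, beside 0.002 over all pairs of genes. Leaving out APP anti-miR-mix 3 lowered the median r to 0.40.

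**Figure D4:**
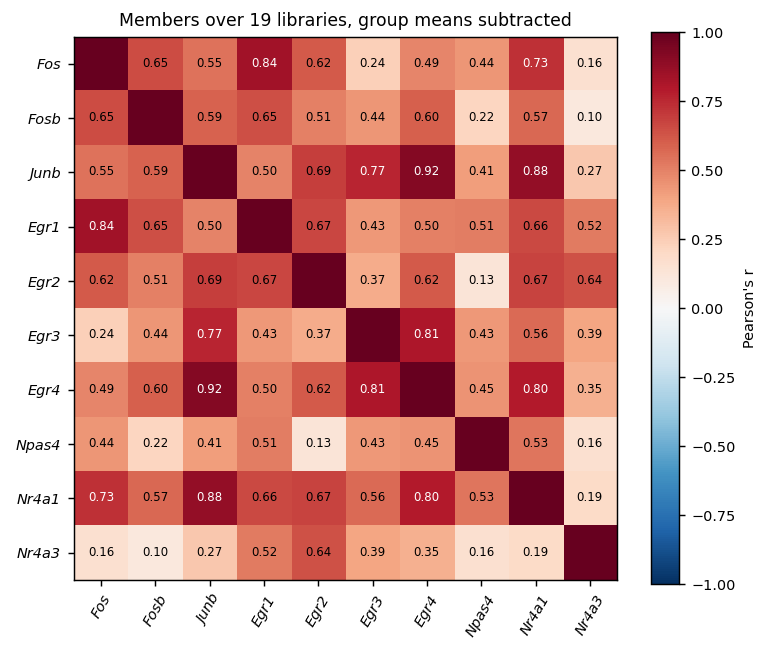
Pearson's r between members (rows and columns) over the 19 libraries after subtraction of group means; the colour scale runs from -1 to 1 and each cell gives r. All cells off the diagonal are above 0, the highest for Junb with Egr4 (0.92) and the lowest for Fosb with Nr4a3 (0.10).

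The closest pair was Junb and Egr4 (r = 0.918, permutation adjusted p = 3.00e-04, rho = 0.912, adjusted p = 4.50e-04), and r was 0.847 without the 2 libraries farthest from the median of Junb. Junb and Nr4a1 (r = 0.875, permutation adjusted p = 3.00e-04, rho = 0.849, adjusted p = 4.50e-04) gave 0.81 without them. Fos and Egr1 followed (r = 0.836, permutation adjusted p = 3.00e-04, rho = 0.853, adjusted p = 0.00150), with 0.781 without the 2 libraries farthest from the median of Fos. Egr3 and Egr4 had r = 0.807 (permutation adjusted p = 0.00225, rho = 0.73, adjusted p = 0.01) and 0.682 in the same way. Nr4a3 stood apart from its relative: its r with Nr4a1 was 0.194 (permutation adjusted p = 0.511, rho = 0.144, adjusted p = 0.618), and its median r with the other 9 members was 0.27, the lowest of the 10. Nr4a1 had the highest median, 0.66. For Fosb with Nr4a3, r was 0.102 and became -0.453 without the 2 libraries farthest from the median of Fosb.

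Across libraries, the mean of the z-scores of the members ordered WT control first: its 6 libraries took places 1 to 6 of 19. This is a description, since the members were chosen with such results known. WT control 1 had the highest value and was the highest of all 19 libraries for 7 members. APP anti-miR-mix 7 had the lowest value and was the lowest for 6 members, with all 10 below the lowest WT control library, as in APP control 6 and APP anti-miR-mix 6. APP anti-miR-mix 3 took place 7, above every APP control library, with 5 members below the lowest WT control library, and was above its own group mean for all 10. WT control 1 and APP anti-miR-mix 7 had dentate gyrus sums of 6849 and 7731 normalised counts and choroid plexus sums of 915 and 617. Their sums for the glucocorticoid-induced list were 18310 and 15700, and for the heat shock list 31580 and 27850. The part of these differences in the score was not tested.

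The 8 genes most like the members over the 19 libraries, by Pearson's r with the mean z-score among genes with a mean of at least 50 normalised counts, were Arc (0.939), Dusp5 (0.897), Nos1ap (0.886), Dnajb5 (0.877), Gramd1b (0.872), Sbk1 (0.872), Ankrd33b (0.868) and Topors (0.866). These values include the difference between groups, and the points share depth and composition. After subtraction of group means 2 of the 8, Arc (0.84) and Sbk1 (0.835), stayed among the 8 nearest genes, and Fgfr1 (0.85) came first. Arc stood at 5438 ± 1597, 3225 ± 814 and 2652 ± 639 normalised counts in WT control, APP control and APP anti-miR-mix.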

How the data were processed

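RNA-seq counts of 19 mouse CA1 libraries (read length 50 nt, polyA RNA) were analysed. Per the labels and the submitters' processing notes, the authors aligned reads to mm10 with STAR (2.5.2b) and counted them per gene with featureCounts of Subread (1.5.1); the deposited counts are raw and not normalized. Strand setting and annotation release are not given in the sources used here. The authors also deposited a log2 table of 18825 genes, equal to log2(CPM + 1) less a whole number per library times a slope per gene, used as an alternative only.

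Total counts ranged from 19362343 to 37018917 per library. No pair of libraries in a group agreed within sampling noise (lowest chi-square per gene 4.46 over 51 pairs). Nothing states that each library came from a separate animal, so p-values measure the spread between these samples, which may be partly technical. A gene was tested if 5 or more reads were counted in 50% or more of the libraries. The test was DESeq2 (1.42.0) in 1 fit of 3 groups: Wald tests, unshrunken log2 fold changes and Benjamini-Hochberg adjustment over all genes, threshold 0.05. Confidence intervals are 95% Wald intervals. Normalised counts are counts divided by DESeq2 size factors. edgeR (4.0.16), limma (3.58.1), R (4.3.3) and Python (3.11.15) were also used, and the tests were checked on simulated data.

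Members and gene lists were chosen with earlier results of these data known. From lists other than the members, genes called in a comparison were named, at most the 4 with the smallest adjusted p; exceptions are marked. Alternatives were edgeR, TMM size factors, other filters, fits of 2 groups, no outlier replacement, the adjustment number or replicate number as a term, the log2 table, and libraries left out. Sequences came from RefSeq, GENCODE M21 and the study's oligonucleotide list.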

Additional observations from a re-analysis of the deposited data

Results flagged for a closer look

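In 30 sets of values (10 genes in 3 groups), 2 held a library that stood apart from its group by Dixon's criterion at 95%, where chance gives about 1.5. Egr1 in APP anti-miR-mix 3 was 5211 normalised counts, and the other 6 libraries lay from 2710 to 3779. Egr2 in WT control 1 was 144.2 normalised counts, and the other 5 lay from 65.0 to 92.7.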

How the results depend on the processing

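Every call of Fos, Fosb, Egr1, Nr4a1 and Nr4a3 against WT control, in both transgenic groups, held under all 29 alternatives, and Nr4a1 stayed within -0.82 to -0.69 for APP control (log2) and -1.11 to -0.98 for the treated group. The members called in APP control numbered 5 with edgeR and 8 in a fit of 2 groups, beside 7, and 5 to 8 with a library left out; in APP anti-miR-mix 7 to 9 beside 8; between the transgenic groups 0 under all alternatives (over all genes 3 in a fit of 2 groups, 1 with the replicate block and 0 in the other fits of all libraries). Same-numbered replicates of different groups deviated together only weakly (median r 0.107 over 18 pairs, -0.125 to 0.347), so the numbers were not read as pairs; with a replicate block 8, 0 and 8 members were called, Npas4 being added in APP control against WT control, and over all genes 1222 were called in place of 908. The sign changed only for members that were not called. In APP control against WT control, Egr2 (0.00) went to -0.0074 with the adjustment number as a factor and -0.0427 without the 2 libraries high in choroid plexus genes, and from -0.0638 to 0.223 with a library left out. Between the transgenic groups, Fosb went to 0.0158 without those 2 libraries, Egr3 to -0.0268 with the number as a factor and -0.0049 on the deposited log2 table, and Npas4 to 0.0194 with the replicate block. With a library left out these ranged from -0.096 to 0.015 (Fosb), -0.0716 to 0.056 (Egr3), -0.139 to 0.0447 (Npas4) and -0.08 to 0.0986 (Egr1). The median r among members was 0.737 without subtraction of group means, beside 0.52, and 0.402 to 0.597 with a library left out. The cause of these shifts was not tested. Depth limits Egr2 most, at 31 to 147 raw counts per library.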
